A study of Mus musculus with 70 samples.

Results

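The comparison sets the lungs of 4 mice given N-methylolacrylamide beside those of 4 mice given 2-chloromethylpyridine hydrochloride, which are 8 of the 70 arrays in the series. The arrays were chosen by the chemical code in their titles (MACR and CMPH), and both groups belong to set 2 of the animal identifiers. All 8 mice were female B6C3F1, a hybrid strain used in rodent cancer bioassays, and started at 5 weeks of age. Each received its chemical by gavage in distilled water at 5 ml/kg on 5 days a week for 13 weeks, and the right lung lobe was taken at 18 weeks of age. N-methylolacrylamide was given at 50 mg/kg and is labelled positive for lung tumours. 2-chloromethylpyridine hydrochloride was given at 250 mg/kg and is labelled negative. The chemicals thus differ in dose as well as in tumour label, and chemical, dose and label cannot be told apart with 1 group of each. The question is whether 13 weeks of exposure, long before tumours are scored in a bioassay, leave the lungs of the 2 groups with different transcripts. Control arrays of set 2 are given beside the results: 4 mice gavaged with water alone, 4 on untreated feed and 8 gavaged with corn oil.

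N-methylolacrylamide is a crosslinking monomer derived from acrylamide, and its double bond can react with thiols such as that of glutathione. 2-chloromethylpyridine carries a chloromethyl group that can alkylate nucleophiles. Reactive compounds of this kind are commonly met by the NRF2 pathway, which raises glutathione and conjugation enzymes, by the p53 response to DNA damage, and by the heat shock response. In the heat shock response unfolded proteins draw chaperones away from the transcription factor HSF1, which then binds repeated GAA and TTC units (heat shock elements) and induces chaperone genes. The genes of the circadian clock also cycle strongly in lung, with Dbp and its partners peaking at nearly the opposite time of day to Arntl.

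The 8 arrays correlated between 0.984 and 0.996 over all probe sets, and 0 pairs in the series were identical. All 12 alveolar type II markers and all 14 type I markers on the array passed the filter on dim genes, and the mean of the type II markers lay between 12.32 and 12.56 on the log2 scale in all 8 arrays. Heart muscle markers, which come with pulmonary vein or heart tissue, varied widely in both groups, from 6.70 to 8.79 with N-methylolacrylamide and from 6.73 to 8.70 with 2-chloromethylpyridine. RNA integrity numbers averaged 8.0 in both groups (n = 4 and 3), with an exact permutation p of 1.00. The difference between 3' and 5' probe sets of Actb and Gapdh, a measure of RNA degradation, was 0.18 ± 0.05 (SD, n = 4) with N-methylolacrylamide and 0.15 ± 0.06 (SD, n = 4) with 2-chloromethylpyridine. Its exact two-sided permutation p was 0.429, where 0.0286 is the smallest that 4 against 4 allow. The first principal component of the 70 arrays, which held 55.1% of the variance, averaged 8.55 ± 14.3 (SD, n = 4) and 27.0 ± 17.3 (SD, n = 4), with an exact p of 0.171. In the 2-chloromethylpyridine group animal 119 scored 1.22 on it and the other 3 scored 34.0 to 37.3, so this array stands apart from its group. The water controls scored 26.4 to 63.3, above all 4 N-methylolacrylamide arrays, which scored -5.31 to 24.7. Of the 158 genes named in the text, 22 had a difference over 1.5 times larger without this animal, 11 over 1.5 times smaller and 5 a changed sign, and the values of those that differed by more than 0.1 are given below.

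No gene passed the test between the 2 groups. Of 14593 genes tested with limma, 0 (0%) had an adjusted p under 0.05, and the smallest adjusted p was 0.436. Before adjustment 1488 genes had a p under 0.05, of which 672 (4.6%) were higher with N-methylolacrylamide and 816 (5.59%) were lower, against 729.65 genes in all if none differed. In 317 genes (2.17%) all 4 N-methylolacrylamide arrays lay above all 4 of the other group, and in 441 genes (3.02%) all 4 lay below. These 4 shares are the background against which counts of list members are read. The 95% interval of the log2 difference reached 0.27 to either side of the estimate in the median gene, and for 13991 genes (95.9%) it lay wholly within a 2-fold change in either direction. For 10344 genes (70.9%) it lay within 0.5 on the log2 scale. The median difference of all genes was -0.02.

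The count of 0 depended on how the arrays were weighted. When arrays were weighted by how closely they followed the fit, 1602 genes (11%) passed with higher and 2628 (18%) with lower values in the N-methylolacrylamide group. Animal 119 then received a weight of 0.227 and the other 3 2-chloromethylpyridine arrays 2.00 to 2.61. Leaving animal 119 out of the unweighted fit gave 0 called genes, with 3089 genes under 0.05 before adjustment. Of the 158 named genes 87 passed with weights, and the weighted counts of some gene lists are given below. The cause of the gap between both fits was not tested.

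**Figure D1:**
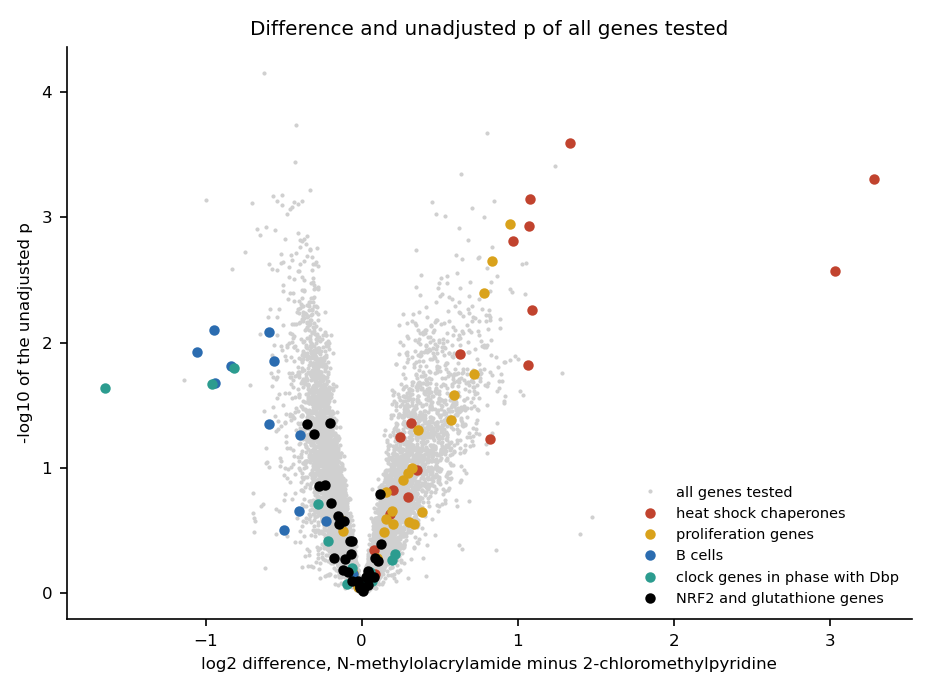
Each point is a gene, with its log2 difference (N-methylolacrylamide minus 2-chloromethylpyridine) on the horizontal axis and -log10 of its unadjusted p on the vertical axis. The heat shock chaperones lie on the right, with Hspa1b at 3.28 and Hspa1a at 3.03, the B cell genes lie on the left, and the NRF2 and glutathione genes lie around 0.

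The widest differences were in chaperone genes. Of 21 genes that differed by more than 1 on the log2 scale, 18 were higher with N-methylolacrylamide. Among these 18, chosen for mention after their values were seen, 9 encode chaperones or their helpers: Hspa1b, Hspa1a, Dnaja1, Hsph1, Dnajb4, Chordc1, Cacybp, Dnajb1 and Ahsa2. Promoters are shown because heat shock elements are known to act there. Of the windows below, 4 were picked from widely differing members that hold the motif, and Cacybp is added as a widely differing member whose window holds none. The windows of Dnajb1 also hold none, that of Hspa1a holds 1 match at the same distance from its start as that of Hspa1b, and Dnajb4 and Ahsa2 were not used here. They come from RefSeq on build GRCm38.p6 and run from 250 bases before to 50 bases after an annotated start, 5' to 3', with capitals on GAANNTTC and TTCNNGAA, the pairs of facing units of a heat shock element. Each of these motifs reads the same on both strands, and neighbouring matches may share a unit. The windows are chr17:34959189-34959488 on the minus strand for Hspa1b, chr4:40722218-40722517 on the plus strand for Dnaja1, chr9:18292017-18292316 on the plus strand for Chordc1, chr5:149636266-149636565 on the minus strand for Hsph1 and chr1:160212843-160213142 on the minus strand for Cacybp. Where a gene has several windows the one with the most matches is shown.
Hspa1b: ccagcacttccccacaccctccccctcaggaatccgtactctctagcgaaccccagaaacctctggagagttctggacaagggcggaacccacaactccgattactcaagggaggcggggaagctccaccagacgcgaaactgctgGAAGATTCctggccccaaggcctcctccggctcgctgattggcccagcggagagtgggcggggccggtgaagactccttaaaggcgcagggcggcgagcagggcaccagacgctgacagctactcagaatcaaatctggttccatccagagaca
Dnaja1: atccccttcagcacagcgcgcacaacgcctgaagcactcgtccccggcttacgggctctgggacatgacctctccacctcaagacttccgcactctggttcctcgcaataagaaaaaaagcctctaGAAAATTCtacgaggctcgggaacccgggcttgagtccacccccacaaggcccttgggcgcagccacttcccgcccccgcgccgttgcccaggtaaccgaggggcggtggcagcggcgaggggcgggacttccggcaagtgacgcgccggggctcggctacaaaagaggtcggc
Chordc1: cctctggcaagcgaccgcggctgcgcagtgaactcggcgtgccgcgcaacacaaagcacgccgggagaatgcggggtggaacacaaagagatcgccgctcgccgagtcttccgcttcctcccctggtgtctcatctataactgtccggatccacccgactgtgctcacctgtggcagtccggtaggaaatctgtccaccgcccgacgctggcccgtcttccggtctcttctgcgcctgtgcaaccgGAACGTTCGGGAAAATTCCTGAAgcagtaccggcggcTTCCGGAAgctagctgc
Hsph1: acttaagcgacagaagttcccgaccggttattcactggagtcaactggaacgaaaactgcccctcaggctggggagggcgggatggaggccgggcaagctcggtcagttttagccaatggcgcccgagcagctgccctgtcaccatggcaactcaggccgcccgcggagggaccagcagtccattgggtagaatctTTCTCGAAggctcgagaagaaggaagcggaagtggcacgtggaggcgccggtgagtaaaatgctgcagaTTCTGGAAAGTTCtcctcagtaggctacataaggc
Cacybp: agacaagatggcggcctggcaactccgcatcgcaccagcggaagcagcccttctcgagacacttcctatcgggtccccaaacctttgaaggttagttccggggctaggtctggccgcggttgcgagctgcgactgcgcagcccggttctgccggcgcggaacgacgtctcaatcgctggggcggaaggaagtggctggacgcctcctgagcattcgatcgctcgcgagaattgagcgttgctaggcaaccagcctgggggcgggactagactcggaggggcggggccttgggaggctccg

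Of the 19 chaperone genes tested, 16 had a promoter window, and 11 of these 16 (68.8%) held GAANNTTC or TTCNNGAA: Bag3, Chordc1, Dnaja1, Fkbp4, Hspa1a, Hspa1b, Hspb1, Hspb8, Hspd1, Hspe1 and Hsph1. Of the 11679 tested genes with a window 1654 (14.2%) held one, and of all 27025 genes with a window 4587 (17%). A run of 3 alternating units, GAANNTTCNNGAA or TTCNNGAANNTTC, was in the windows of Chordc1, Hspd1, Hspe1 and Hsph1, which is 4 of 16 (25%), against 64 of 11679 tested genes (0.548%) and 179 of all 27025 (0.662%). A match is a stretch of letters and not a measured binding site. The list was drawn up from known heat shock genes, so a high share is a property of the list and tells nothing about these 8 arrays. Differences of list members with a match ran from 0.04 (Hspb8) to 3.28 (Hspa1b), while Cacybp (1.07) and Dnajb1 (1.06) held none. Hspa1b and Hspa1a, which are near-identical neighbours on chromosome 17, each hold 1 match.

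Hspa1b and Hspa1a encode the inducible HSP70 chaperone. The deposited log2 values of Hspa1b were 11.59, 12.06, 8.55 and 10.66 in N-methylolacrylamide animals 101, 102, 106 and 109, and 9.12, 7.66, 6.57 and 6.40 in 2-chloromethylpyridine animals 113, 115, 118 and 119. Animal 106 alone lay below the highest array of the other group, and the other 3 lay above all 4 of them. The difference was 3.28 ± 0.89 (SE of the fit, 95% interval 1.50 to 5.06), a 9.70-fold higher mean with an adjusted p of 0.436. Hspa1a read 10.76, 11.20, 7.34 and 9.09 against 7.44, 6.60, 6.56 and 5.67, again with animal 106 below the top of the other group. Its difference was 3.03 ± 0.97 (SE), with an adjusted p of 0.436. The probe sets of this pair cannot be assumed to tell the 2 genes apart, so both are best read as 1 signal. With array weights both passed, with differences of 2.61 (adjusted p = 0.0120) and 2.41 (adjusted p = 0.0267).

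The controls place Hspa1b differently from what the direct difference alone would show. Water controls 121, 124, 127 and 129 read 11.19, 12.07, 7.85 and 7.87. This span covers the N-methylolacrylamide arrays but not the lower 2-chloromethylpyridine arrays. The 4 feed controls lay between 9.18 and 11.21 and the 8 corn oil controls between 8.66 and 12.08. Thus 3 of the 4 2-chloromethylpyridine arrays lay below every one of the 16 controls, and no N-methylolacrylamide array lay outside their range. Hspa1b differed from water by 0.97 with N-methylolacrylamide (adjusted p = 0.456) and by -2.31 with 2-chloromethylpyridine (adjusted p = 0.351), and neither passed.

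Dnaja1, an HSP40 protein that hands clients to HSP70, separated the groups fully. Its values were 10.93, 11.87, 10.72 and 11.08 with N-methylolacrylamide and 10.02, 9.43, 9.52 and 10.31 with 2-chloromethylpyridine. Every N-methylolacrylamide array lay above every array of the other group, and the difference of 1.33 ± 0.34 (SE, 2.52-fold) was also seen in its other 2 probe sets, at 1.16 and 1.41. Chordc1, an HSP90 co-chaperone, read 9.02, 10.20, 9.10 and 9.34 against 8.51, 8.01, 8.15 and 8.68, and its difference was 1.08 ± 0.30 (SE). These groups did not overlap either. Hsph1, an HSP110 exchange factor for HSP70, read 10.01, 10.96, 9.55 and 10.13 against 9.66, 8.90, 8.74 and 8.97, with 1 array of each group in the overlap. All 3 had an adjusted p of 0.436 without weights, and with array weights all 3 passed (adjusted p = 0.000211 for Dnaja1, 0.000548 for Chordc1 and 0.0131 for Hsph1).

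Dnajb1, another HSP40 protein, followed Hspa1b: animals 101 and 102 read 11.23 and 11.35, animals 106 and 109 read 9.68 and 10.44, and the other group read 9.79, 9.73, 9.72 and 9.19. Animal 106 lay below 3 of the 4 arrays of the other group. The co-chaperones Cacybp (1.07 ± 0.31, SE), Dnajb4 (1.08 ± 0.30, SE) and Ahsa2 (1.05 ± 0.33, SE) and the inducible HSP90 gene Hsp90aa1 (0.97 ± 0.29, SE) showed another order, in which animal 119 was the highest of its group. Cacybp read 7.67, 7.44, 7.50 and 8.50 in animals 113, 115, 118 and 119, where 8.50 is above 1 N-methylolacrylamide array. Ahsa2 did not overlap between the groups, at 7.78 to 9.09 against 6.89 to 7.57. The mitochondrial chaperonins Hspd1 (0.63 ± 0.24, SE) and Hspe1 (0.32 ± 0.15, SE) differed less. Hspa4l (0.82), Bag3 (0.35), Stip1 (0.29), Hspa8 (0.25), Ahsa1 (0.20) and Fkbp4 (0.18) each had an unadjusted p above 0.05. Without animal 119, the lowest of its group for Bag3, Bag3 was at 0.20 and Fkbp4 at 0.047.

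As a list the 19 chaperones had a median difference of 0.63, beside -0.02 for all genes. All 19 differences were above 0, from 0.04 to 3.28, and 17 to 19 were above 0 in each of the other fits that kept all members. Before adjustment 10 of 19 had a p under 0.05 in this direction (background 4.6%), and 2 of 19 did not overlap between groups (background 2.17%). With array weights 9 of 19 passed as higher (background 11%) and 0 as lower. The list mean was 9.91 to 10.83 in the N-methylolacrylamide arrays, 9.32 to 9.74 in the 2-chloromethylpyridine arrays and 9.36 to 10.63 in the water controls. Its median was 0.21 against water with N-methylolacrylamide and -0.39 with 2-chloromethylpyridine. Both comparisons share the same 4 water controls, so their values are given side by side only. When the score on the principal axis of variation within groups entered the fit, the list median was 0.34. That score averaged 8.85 with N-methylolacrylamide and 26.4 with 2-chloromethylpyridine, so this fit does not fully separate score from group.

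**Figure D2:**
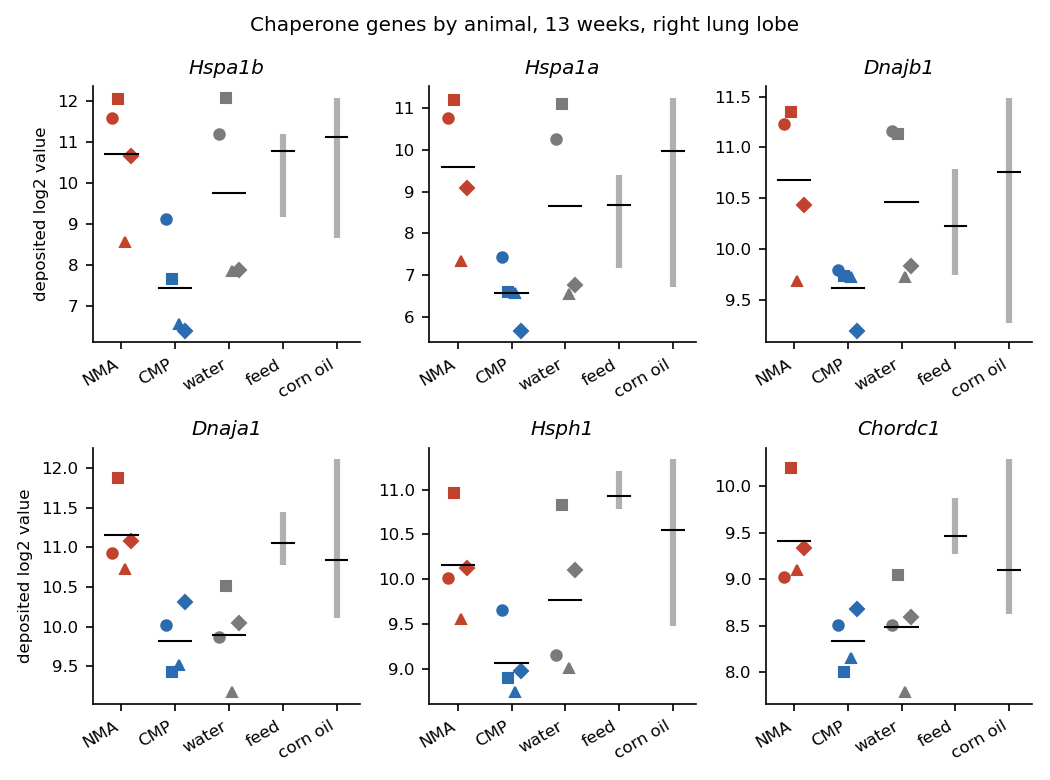
Deposited log2 values of 6 chaperone genes in N-methylolacrylamide (NMA), 2-chloromethylpyridine (CMP) and water control animals, 1 symbol per animal, with horizontal lines at group means. Grey bars span the lowest to the highest of the 4 feed and 8 corn oil controls with a line at the median, and Dnaja1 and Chordc1 separate both treated groups fully.

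The clock genes split the N-methylolacrylamide animals among themselves. Dbp, a clock output transcription factor, read 6.73 and 6.02 in animals 101 and 102 but 9.80 and 9.47 in animals 106 and 109. All 4 2-chloromethylpyridine animals were at the high end, at 9.16, 10.10, 9.89 and 9.45. The difference of -1.64 ± 0.70 (SE, adjusted p = 0.448) therefore rests on 2 of 4 animals. Nr1d1, which encodes the repressor REV-ERBα, read 7.47, 7.56, 9.21 and 9.12 against 8.91, 9.52, 9.47 and 9.29. The period gene Per3 read 6.53, 6.65, 8.21 and 8.21 against 8.07, 8.41, 8.32 and 8.09, so both genes were low in the same 2 animals.

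Genes of the opposite phase were high in these 2 animals. Arntl, which encodes the clock activator BMAL1, read 8.33 and 8.56 in animals 101 and 102 and 6.72 and 6.95 in animals 106 and 109, against 7.89, 6.87, 6.90 and 6.13 with 2-chloromethylpyridine. Nfil3, a repressor that opposes Dbp, read 6.89, 7.30, 5.64 and 5.77 against 6.23, 5.91, 5.87 and 4.98. The differences were 0.70 ± 0.37 (SE) for Arntl and 0.65 ± 0.39 (SE) for Nfil3, both with an unadjusted p above 0.05. Without animal 119 they were 0.42 and 0.40. Npas2, a partner of BMAL1, differed by 0.47 ± 0.17 (SE, adjusted p = 0.436). Of the 13 genes in phase with Dbp 6 were higher and 7 lower, with a median of only -0.06. A lower value with an unadjusted p under 0.05 was found in 3 of the 13 (background 5.59%), and without animal 101 or without animal 102 in none. Of the 5 genes in phase with Arntl all 5 were higher, 1 with an unadjusted p under 0.05 (background 4.6%).

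The same animals led in Hspa1b and trailed in Dbp. Animals 101 and 102 had the highest Hspa1b and the lowest Dbp of the N-methylolacrylamide group. Water controls 121 and 124 had the highest Hspa1b (11.19 and 12.07) and the lowest Dbp (6.77 and 6.57) of theirs, beside Dbp values of 8.71 and 8.89 in animals 127 and 129. The labels give no time of day for the killing of each animal, and its part in the chaperone and clock values was not tested. Cirbp, a cold-inducible RNA-binding protein, read 8.31, 7.19, 7.48 and 7.17 against 7.66, 8.32, 8.55 and 8.06, a difference of -0.61 ± 0.36 (SE) with overlapping groups.

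**Figure D3:**
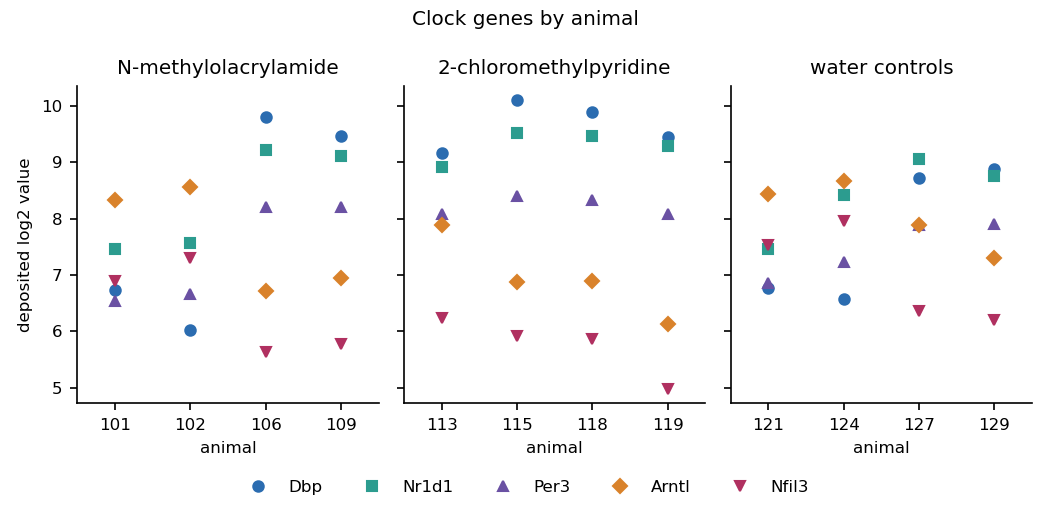
Deposited log2 values of 5 clock genes in each animal of the 2 treated groups and the water controls, with animals along the horizontal axis. Dbp lies between 6.02 and 6.77 in animals 101, 102, 121 and 124 and between 8.71 and 10.10 in the other 8, and in the N-methylolacrylamide and water groups Arntl and Nfil3 are highest in the animals with low Dbp.

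Of 23 cell division genes tested, 19 had higher and 4 lower means with N-methylolacrylamide. Top2a, the topoisomerase of dividing cells, read 5.70, 6.40, 6.23 and 6.85 against 5.06, 4.93, 5.63 and 5.77, and 1 N-methylolacrylamide array lay within the range of the other group. Its difference was 0.95 ± 0.28 (SE, 1.93-fold, adjusted p = 0.436), but 2 dimmer Top2a probe sets gave -0.20 and -0.07. Spc25, a kinetochore protein that is not on the list, read 4.72, 5.21, 4.77 and 4.96 against 4.05, 3.99, 4.50 and 3.90 without overlap, a difference of 0.81 ± 0.20 (SE). Its other probe set gave only 0.20, and the values 4.05, 3.99 and 3.90 lie below the mean that the filter on dim genes required (4.25). The mitotic kinase gene Cdk1 read 6.37, 6.77, 6.79 and 7.88 against 6.32, 5.98, 6.48 and 5.90, and animal 109 was the highest. Ccnb2, a mitotic cyclin, differed by 0.83 ± 0.26 (SE) without overlap. Rrm2, which makes deoxynucleotides, differed by 0.72 ± 0.30 (SE), the survivin gene Birc5 by 0.59 ± 0.26 (SE) and the proliferation marker Mki67 by 0.57 ± 0.27 (SE). The dimmer Rrm2 probe sets gave 0.19 and 0.36. The 4 lower genes encode subunits of the MCM helicase that opens DNA at replication origins: Mcm7 (-0.13), Mcm6 (-0.12), Mcm3 (-0.06) and Mcm5 (-0.03). Mcm2 (0.14) and Mcm4 (0.26), subunits of the same helicase, were higher, so the helicase genes lay on both sides of 0. Each of these MCM genes had an unadjusted p above 0.05.

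Over these 23 proliferation genes the median difference was 0.30. Of these 7 were higher with an unadjusted p under 0.05 (background 4.6%), 0 were lower, and 4 did not overlap between groups (background 2.17%). With array weights 6 passed as higher (background 11%) and 1, Mcm7, as lower. The list mean was 6.60, 6.78, 6.85 and 7.33 in animals 101, 102, 106 and 109 and 6.53 to 6.67 in the other group, so animal 109 was the highest. Without animal 109 the median was 0.11, and 2 of the 23 had an unadjusted p under 0.05. The water controls lay at 6.49 to 6.63. Against them the median was 0.26 with N-methylolacrylamide and 0.00 with 2-chloromethylpyridine. In this comparison with water 4 of the 23 passed as higher with N-methylolacrylamide (background 10.7%).

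B cell transcripts had lower means with N-methylolacrylamide. Pou2af1, a B cell coactivator of octamer-binding factors, read 4.98, 4.56, 5.82 and 5.26 against 5.82, 6.81, 6.50 and 5.72, and the difference was -1.06 ± 0.41 (SE, adjusted p = 0.436). The highest N-methylolacrylamide array, animal 106, lay within the range of the other group. Cd79a, a signalling chain of the B cell receptor, read 7.68, 7.12, 8.18 and 7.82 against 8.25, 9.10, 8.83 and 8.40, and all 4 values lay below the lowest of the other group. Its difference was -0.94 ± 0.34 (SE), and that of its partner Cd79b -0.83 ± 0.33 (SE). Fcmr, the IgM Fc receptor, differed by -0.94 ± 0.40 (SE), Cd22, an inhibitory coreceptor, by -0.40 ± 0.20 (SE), and Ms4a1, which encodes CD20, by -0.49 ± 0.49 (SE).

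All 12 B cell genes tested had a lower mean with N-methylolacrylamide, with a median of -0.58, and 7 had an unadjusted p under 0.05 (background 5.59%). Only Cd79a did not overlap between groups (1 of 12, background 3.02%), and with array weights 7 of 12 passed as lower (background 18%). Without animal 102 only 1 of the 12 had an unadjusted p under 0.05 and the median was -0.44, and without animal 115 the count was 2. The list mean was 6.16, 5.87, 6.78 and 6.35 in animals 101, 102, 106 and 109, and 6.54 to 7.13 in the other group. Water controls ran from 5.76 to 7.16, so neither treated group lay outside them. The list median against water was -0.08 with N-methylolacrylamide and 0.67 with 2-chloromethylpyridine, and both comparisons share the same water controls. In whole lung tissue fewer B cells and less RNA per B cell cannot be told apart.

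**Figure D4:**
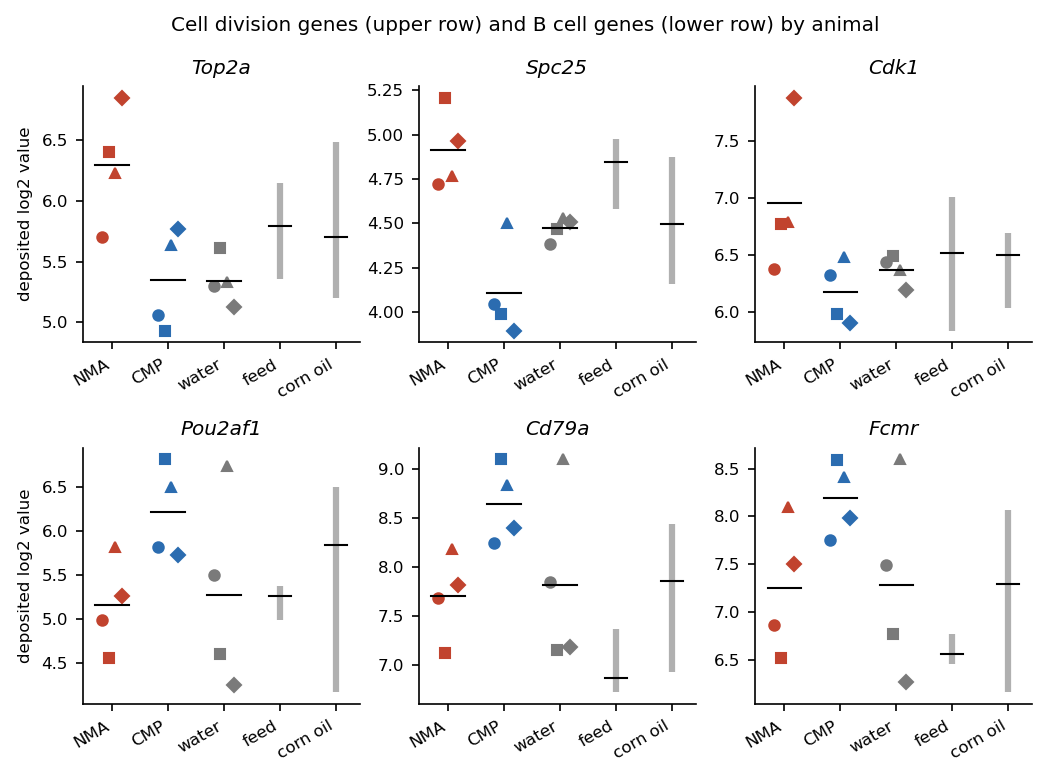
Deposited log2 values of 3 cell division genes (upper row) and 3 B cell genes (lower row) by animal, drawn as in the plot of chaperones, with lines at group means and grey bars for the range of feed and corn oil controls. Spc25 and Cd79a separate the N-methylolacrylamide (NMA) and 2-chloromethylpyridine (CMP) animals fully, and for Cdk1 animal 109 (7.88) lies above the rest.

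Other blood and immune markers mostly had medians below 0. The plasma cell and immunoglobulin list had 10 of 11 members lower (median -0.38), with Igha at -0.70, Igk at -0.69 and Iglv1 at 0.39. The variable segment Ighv14-2, singled out because it differed by more than 1, was at -1.14 ± 0.47 (SE). Neutrophil genes had a median of -0.23, and the calprotectin genes S100a8 and S100a9 were both at -0.69 with an unadjusted p above 0.05. All 8 platelet genes were lower (median -0.27), with Gp1bb at -0.52 and Itga2b at -0.40. The T and NK cell list had a median of -0.14, with Il7r at 0.50 and Ccr7 at -0.38. Alveolar macrophage genes had a median of 0.10 (Atp6v0d2 0.52, Mrc1 0.49) and monocyte genes one of -0.02 (Itgam -0.25, Cx3cr1 -0.22). Kit (-0.30) and Cma1 (-0.25) were the most different mast cell genes, and Alas2 (-0.22) and Bpgm (-0.22) the most different erythroid genes. None of these lists had more than 1 member with an unadjusted p under 0.05.

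Most airway and vascular lists had medians close to 0. Bpifb1 and Bpifa1, secreted proteins of the airway lining, had mean differences of 1.47 ± 1.26 and 1.40 ± 1.45 (SE). Bpifb1 read 7.12, 10.00, 10.65 and 8.16 against 6.87, 4.27, 9.16 and 9.73, so the groups overlapped across most of their range. Pigr, the receptor that carries IgA across epithelium, was the only 1 of 16 club and secretory cell genes with an unadjusted p under 0.05. It read 8.71, 8.80, 8.67 and 8.56 against 7.87, 8.08, 7.92 and 8.16, all 4 above the other group, and the difference was 0.68 ± 0.25 (SE, adjusted p = 0.436). The club cell list median was 0.00. Among ciliated cell genes Ccdc39 (0.71) and Capsl (0.45) differed most, and the median was 0.09. Endothelial genes had a median of -0.15. With an unadjusted p under 0.05, 3 of 21 were lower (background 5.59%) and 1, Ednrb at 0.35, was higher (background 4.6%). Without overlap 5 of 21 lay lower (background 3.02%) and 1, Emcn, lay higher (background 2.17%). Clec14a, an endothelial lectin, read 10.66, 10.56, 10.90 and 10.75 against 10.99, 11.15, 11.15 and 11.17 without overlap, a difference of -0.40 ± 0.14 (SE, adjusted p = 0.436), and Emcn, endomucin, went the other way at 0.38. The type II markers Etv5 (-0.45) and Cd74 (-0.12), the type I markers Cav2 (0.44) and Akap5 (0.35), the fibroblast markers Lum (0.65) and Pdgfrb (-0.38), the smooth muscle markers Synpo2 (0.57) and Myh11 (0.23) and the mesothelial markers Muc16 (0.34) and Wt1 (0.25) were the most different of their lists. The other Synpo2 probe sets gave -0.18, -0.0005 and -0.16. Adipocyte genes were all 7 lower (median -0.24), with Adipoq at -0.62 ± 1.27 (SE) and Lipe at -0.57 ± 0.24 (SE).

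Enzymes that handle reactive compounds were close to equal. Ephx1, the microsomal epoxide hydrolase, differed by -0.06 (95% interval -0.24 to 0.11), Gstp1, a glutathione transferase, by -0.01 (-0.16 to 0.15), Gsta4, which conjugates lipid aldehydes, by 0.01 (-0.22 to 0.24) and Gclc, which makes glutathione, by -0.06 (-0.52 to 0.40). With array weights Ephx1 passed as lower, at -0.17 (adjusted p = 0.0428), and the other 3 did not pass. Cyp2e1, an oxidase of small molecules and of acrylamide, differed by -0.42, but its interval of -1.41 to 0.56 was wide. Of 34 NRF2 and glutathione genes 0 were higher (background 4.6%) and 2 lower (background 5.59%) with an unadjusted p under 0.05. Their median was -0.04, and Cbr3 (-0.35) and Osgin1 (-0.30) differed most. Nfe2l2, which encodes NRF2 itself, differed by 0.42 ± 0.17 (SE) without overlap. Of 25 phase I enzymes none had an unadjusted p under 0.05, and Ces1f was at -0.36. Among efflux transporters Abcb1a was at 0.43 and Abca1 at 0.43.

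Targets of the aryl hydrocarbon receptor were represented by 6 genes. Cyp1a1, its classical target, read 8.15, 7.13, 6.57 and 7.32 against 6.97, 7.06, 6.66 and 5.55. The difference was 0.73 ± 0.36 (SE, adjusted p = 0.489), with animal 101 highest and animal 119 lowest. Without animal 119 it was 0.39. Tiparp, which modifies and restrains the receptor, was at 0.35 and Nfe2l2, also counted here, at 0.42. Aldh3a1, an aldehyde dehydrogenase, was at -0.33, Cyp1b1 at -0.02 and Cyp1a2 at 0.01. Over the 6 genes the median was 0.18, 2 were higher with an unadjusted p under 0.05 (Cyp1a1 and Nfe2l2, background 4.6%) and 0 were lower. With array weights 2 of the 6, Tiparp and Nfe2l2, passed as higher (background 11%), and Cyp1a1 was at 0.26 (adjusted p = 0.546).

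Genes of the DNA damage response gave no common direction. Cdkn1a, the p21 cell cycle inhibitor, differed by 0.22 ± 0.31 (SE) and Mdm2, which degrades p53, by 0.17 ± 0.14 (SE), which without animal 119 became 0.034 and 0.28. Ccng1, a p53-induced cyclin, read 8.37, 9.08, 9.00 and 8.52 against 7.96, 7.87, 7.82 and 8.57, a difference of 0.69 ± 0.25 (SE, adjusted p = 0.436). Animal 119 was again the highest of its group and lay above 2 N-methylolacrylamide arrays. Rrm2b, a p53-induced ribonucleotide reductase subunit, was at 0.44. Of 26 p53 targets 3 were higher (background 4.6%) and 1 lower (background 5.59%) with an unadjusted p under 0.05, and the median was -0.07. Among 33 repair genes 0 were higher (background 4.6%) and 3 lower (background 5.59%) at the same threshold, with a median of -0.05. The checkpoint kinase gene Atr (0.45) and the ligase gene Lig4 (0.39) differed most.

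By smallest p, none of them passing, the higher genes were Spc25, Dnaja1, Lrat, Jade1 and Hspa1b. Lrat, which stores retinol as esters, read 8.14, 9.12, 8.62 and 7.48 against 7.20, 7.11, 6.70 and 7.42, a difference of 1.24 ± 0.33 (SE) without overlap. Jade1, a scaffold of a histone acetyltransferase complex, was at 0.64 ± 0.17 (SE). On the lower side Gm15527, an uncharacterised gene, had the smallest p of all genes (7.05e-05). It read 5.11, 5.20, 5.11 and 4.89 against 5.59, 5.81, 5.67 and 5.73, a difference of -0.62 ± 0.15 (SE). Ehd4, an ATPase of endocytic recycling, followed at -0.42 ± 0.10 (SE), then Amdhd2, an enzyme of amino sugar breakdown, at -0.43 ± 0.11 (SE), the phospholipase gene Plcg1 at -0.33 ± 0.09 (SE) and the bradykinin receptor gene Bdkrb1 at -0.51 ± 0.14 (SE). Of these 5 lower genes all but Ehd4 separated the groups fully, and the 2 other Plcg1 probe sets were at 0.26 and -0.03.

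Further genes that differed by more than 1 had animal 119 beside the N-methylolacrylamide arrays. Plagl1, an imprinted zinc finger gene, read 10.00, 10.42, 10.31 and 10.16 with N-methylolacrylamide and 8.86, 8.80, 8.79 and 10.25 with 2-chloromethylpyridine. Nox4, an oxidase that makes hydrogen peroxide, Ogn, a matrix proteoglycan, Ccar1, a transcriptional coactivator, and Rasa1, a RAS GTPase-activating protein, were at 1.03, 1.02, 1.01 and 1.00. For Nox4 animal 119 read 8.51 beside 6.29 to 6.58 in the rest of its group, and for Ccar1 8.13 beside 6.01 to 6.16. Sult1d1, a sulfotransferase, was at 1.28 ± 0.52 (SE). The score of animal 119 on the first principal component (1.22) lay in the range of the N-methylolacrylamide arrays. With the principal axis of variation within groups in the fit, these 6 differences were 0.56 for Plagl1, 0.32 for Nox4, 0.54 for Ogn, 0.33 for Ccar1, 0.39 for Rasa1 and 0.66 for Sult1d1, with adjusted p-values of 0.728 to 0.838.

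Without animal 119 many differences widened. Nox4 was then at 1.56, Ccar1 at 1.53, Postn at 1.31 (0.86 with it), Il7r at 0.89 (0.50), Ifih1 at 0.80 (0.47), Lpl at 0.77 (0.45), Cav2 at 0.73 (0.44), Abca1 at 0.69 (0.43) and Abcb1a at 0.68 (0.43). Bpifa1 was at 2.36, Bpifb1 at 2.21, Nppa at 0.78 (0.30), the lactoferrin gene Ltf at 1.07 (0.64), Cma1 at -0.44 (-0.25), Mcm7 at -0.24 (-0.13) and Sprr1a at 0.21 (0.13). Others narrowed: Iglv1 to 0.25 (0.39), Cx3cr1 to -0.13 (-0.22), Iyd to 0.098 (0.27), Wt1 to 0.092 (0.25) and Comp to -0.055 (-0.19). No gene passed in that fit either.

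With array weights some of the lists outside the chaperone, proliferation and B cell genes are given here, without a rule for their choice. Their counts are to be read against 11% of all genes higher and 18% lower. Of 26 p53 targets 6 passed as higher and 5 as lower. Of 33 repair genes 3 and 6 passed, of 24 fatty acid oxidation and PPAR targets 2 and 7, of 19 hypoxia and glycolysis genes 1 and 6, and of 34 NRF2 and glutathione genes 0 and 4. Of 21 endothelial genes 3 passed as higher and 7 as lower, of 23 ciliated cell genes 3 and 0, of 13 alveolar macrophage genes 3 and 0, and of 8 platelet genes 0 and 3. Of 14 type I cell genes 3 passed as higher and 0 as lower, of 27 interferon response genes 3 and 0, and of 20 glucocorticoid-induced genes 0 and 0.

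**Figure D5:**
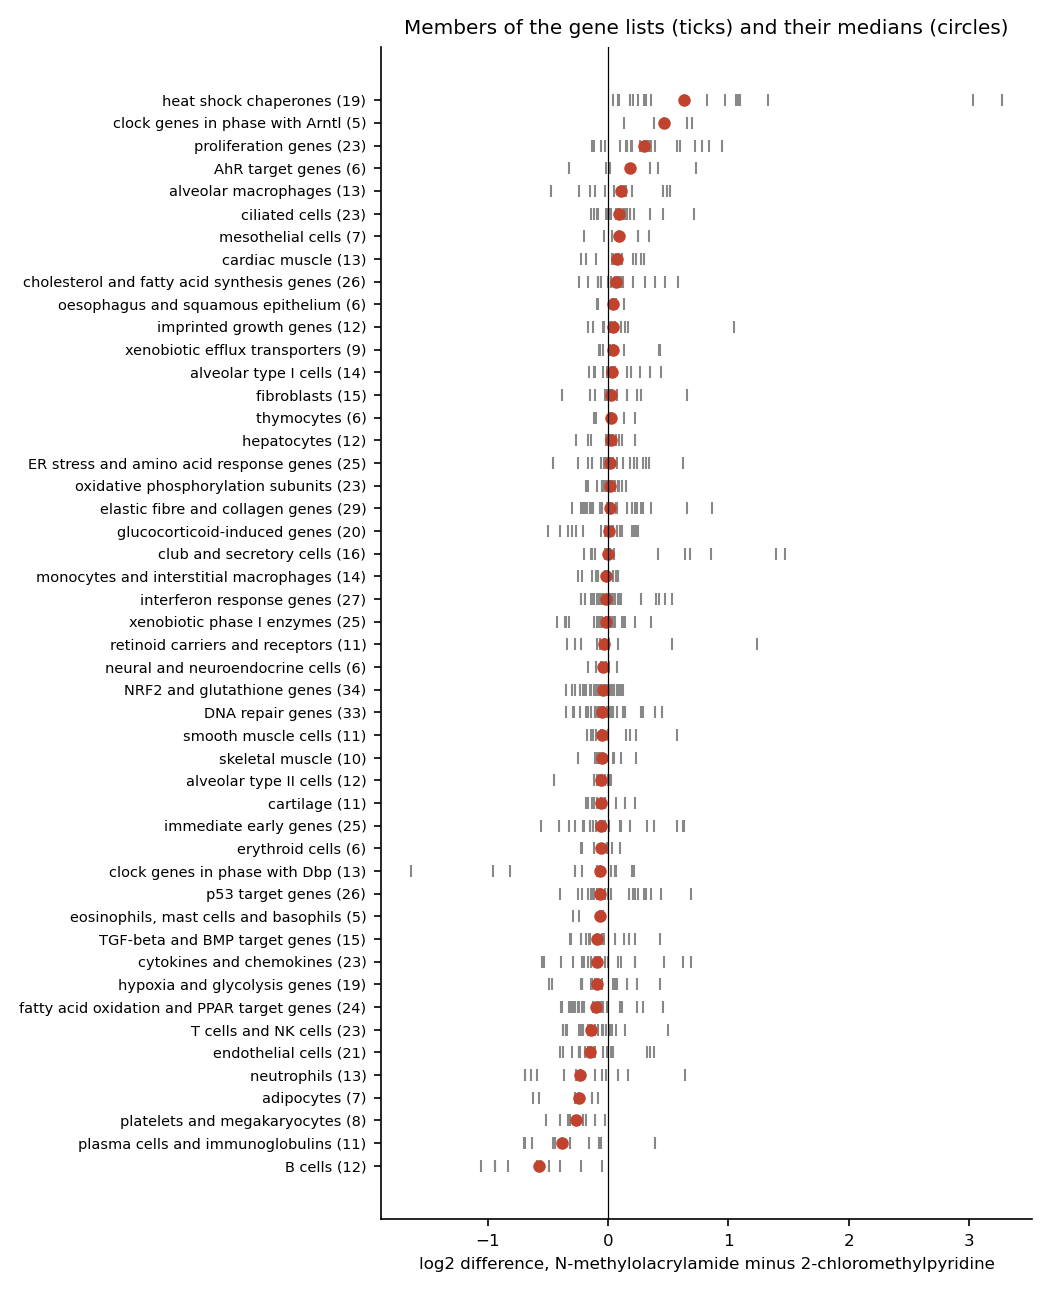
Each tick is the log2 difference (N-methylolacrylamide minus 2-chloromethylpyridine) of 1 member of a gene list and each circle is the list median, for all lists with at least 5 members tested, the number tested in brackets. Medians run from -0.58 for B cells to 0.63 for heat shock chaperones, and most lie within 0.1 of 0.

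The remaining pathway lists had medians between -0.10 and 0.06. In lipid metabolism Scd1, a desaturase, was 0.48 ± 0.14 (SE) higher without overlap and Idi1, of the mevalonate pathway, was at 0.58. Of 24 fatty acid oxidation and PPAR targets 4 were lower with an unadjusted p under 0.05 (background 5.59%), among them the carnitine transferase gene Cpt1a at -0.39 ± 0.12 (SE), while Lpl was at 0.45. For Nr4a3, at 0.63, the other probe sets gave -0.01 and 0.06. Glucocorticoid-induced genes (Map3k6 -0.50, Mt2 -0.40), immediate early genes (Nr4a3 0.63, Klf4 0.62), ER stress genes (Hsp90b1 0.62, Chac1 -0.46) and interferon response genes (Ifit1 0.53, Ifih1 0.47) had members on both sides of 0. So did cytokines and chemokines, of which 7 were higher and 16 lower. The most different were Ccl8 (0.69) and Cxcl5 (0.62), each with an unadjusted p above 0.05, while the 2 of 23 with an unadjusted p under 0.05 were both lower (background 5.59%). These were Ccl22, which read 5.73, 5.37, 5.54 and 5.59 against 5.97, 6.09, 6.42 and 5.96 without overlap (-0.55 ± 0.16, SE), and Ccl17 (-0.53 ± 0.23, SE), both ligands of the receptor CCR4. Members on both sides of 0 were also found in hypoxia genes (Ankrd37 -0.49, Pfkfb3 -0.47), matrix genes (Postn 0.86, Lum 0.65), TGF-beta and BMP targets (Skil 0.43, Id2 -0.32), retinoid genes (Rarb 0.53), imprinted genes (Igf2 -0.17), respiratory chain genes (Uqcrc1 -0.18, Uqcrfs1 -0.17) and histone genes (H3f3b -0.37, H2az1 -0.03). Markers of neighbouring organs differed little in the mean: heart (Nppa 0.30, Ryr2 0.27), skeletal muscle (Tcap -0.25, Pvalb 0.23), cartilage (Acan 0.22, Comp -0.19), liver (Alb -0.27, Cyp3a11 0.22), thymus (Themis 0.22, Dntt 0.13), nerve (Sncg -0.17, Uchl1 -0.10), oesophagus (Sprr1a 0.13, Krt15 -0.09) and thyroid (Iyd 0.27, Tg 0.17).

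Set against vehicle controls, each group gave a different count, and these counts share controls. Against the 4 water controls 1564 genes (10.7%) passed as higher and 1041 (7.13%) as lower with N-methylolacrylamide, while 0 (0%) passed with 2-chloromethylpyridine. The counts with N-methylolacrylamide moved widely with single animals. Without water control 124 they were 262 and 37, without water control 129 they were 1939 and 2040, without animal 102 they were 660 and 249, and without animal 106 they were 839 and 259. When the principal axis of variation within groups entered the fit they were 1 and 0. The N-methylolacrylamide arrays scored -6.59 to 24.8 on this axis and the water controls 25.6 to 64.6, so that fit cannot separate score from group. For 2-chloromethylpyridine 1710 genes had an unadjusted p under 0.05 against water in the main limma fit, and with array weights 254 passed as higher and 60 as lower. Cacybp (1.32, adjusted p = 0.00412) and Dnaja1 (1.25, adjusted p = 0.00986) were among the 5 of 19 chaperones that passed as higher than water with N-methylolacrylamide (background 10.7%), and Hspa1b was not. Cacybp averaged 8.85 with N-methylolacrylamide and 7.53 in water, beside 9.14 in the feed and 8.92 in the corn oil controls. Chordc1 averaged 9.41 and 8.49, beside 9.52 and 9.26. For both genes the N-methylolacrylamide mean was thus close to the feed and corn oil means.

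The feed and corn oil controls differ from the treated groups in vehicle and route. Against feed 127 genes (0.87%) passed with N-methylolacrylamide and 2484 (17%) with 2-chloromethylpyridine. Against corn oil 4 genes (0.0274%) and 135 genes (0.925%) passed. The water controls themselves differed from the feed controls in 2264 genes that passed as higher and 2660 as lower, and from the corn oil controls in 1551 and 1789, so the choice of control sets these counts.

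The tumour label was also compared over the other 11 chemicals of the series, 6 positive and 5 negative. Each chemical gave 1 value against the controls of its set and vehicle. Chemicals of the same set and vehicle share these controls, so their values are not independent. In that fit 0 genes passed, 1325 had an unadjusted p under 0.05 in limma, and the smallest adjusted p was 0.417. Hspa1b was 0.38 higher in the positive chemicals and Dnaja1 0.21 higher, each with an unadjusted p above 0.05, and Top2a and Cd79a were at -0.27 and -0.13. The handling enzymes Ephx1 (0.41 ± 0.09, SE) and Gsta4 (0.52 ± 0.14, SE) had higher means in the positive chemicals there (adjusted p = 0.417 for both), beside -0.06 and 0.01 between the 2 water gavage chemicals. Ccng1 was at 0.41 there and 0.69 here, and Cbr3 was at 0.80 there and -0.35 here.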

How the data were processed

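Lung RNA of 70 mice was measured on Affymetrix mouse genome arrays, and the deposited table holds 1 log2 value per probe set and array. The authors' summarization and normalization of these log2 values are not given in the sources used here. Probe sets were named through the platform annotation, with symbols updated from the RefSeq gene table, and each gene was represented by its probe set with the highest mean. Genes with a mean above the 30th percentile (4.25) were kept, which left 14593 of 18193. limma 3.58.1 in R 4.3.3 fitted 18 group means over all 70 arrays, and a gene was called at a Benjamini-Hochberg adjusted p under 0.05, shared by all adjusted p-values in the text. Single measures were compared with exact two-sided permutation tests. SE and 95% intervals are those of the fit. The fitting code was tested on simulated data.

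The 2 groups, the gene lists and the rule for named genes were chosen with earlier results of these data known. The rule names the 5 genes of smallest p in each direction, the 2 genes of each list with the widest difference, 5 handling enzymes and 3 DNA damage markers. Further chaperone, clock, proliferation, B cell, receptor target, chemokine and widely differing genes were named after their values were seen. Of the 158 named genes 79 have 1 probe set and 79 have several, and in 18 of the latter another probe set had the opposite sign. Nothing in the labels says more of the replicates than that each array is 1 animal. The alternatives were other filters, probe set means, renormalization, fewer arrays, variance models, covariates and each array left out. The number of arrays limits the precision, and no depth applies to arrays. Promoters were read from the RefSeq table of build GRCm38.p6.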

Additional observations from a re-analysis of the deposited data

Results flagged for a closer look

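Of 324 groups of 4 arrays examined, 16 (4.94%) held an array set apart from the other 3 by Dixon's criterion, and chance alone gives about 1 in 20. Of these 16, 9 were animal 119 of the 2-chloromethylpyridine group. Its score was 1.22 on the first principal component and -27.9 on the second. It was the highest of its group for Ccar1 (8.13), Nox4 (8.51), Plagl1 (10.25), Lpl (11.08) and the keratin gene Krt15 (5.61), and the lowest for the chaperone genes Bag3 (8.40) and Dnajb1 (9.19). No integrity number is given for its RNA, and its 3' minus 5' difference of 0.11 lay within the range of its group (0.10 to 0.23). In animal 113 the constitutive HSP70 gene Hspa8 was the highest of its group (12.86) and Clec14a the lowest (10.99). In animal 118 the integrin gene Itgam was the highest (5.54).

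In the N-methylolacrylamide group animal 102 was set apart in 3 genes. It was the highest for the chemokine gene Cxcl5 (5.81) and the lowest for Alas2, of haem synthesis (10.03), and Id2, a BMP target (9.74). Animal 101 was the highest for the histone gene H3f3b (7.85).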

How the results depend on the processing

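The count of 0 genes between the 2 chemicals held under every alternative without array weights, with 678 to 3089 genes at an unadjusted p under 0.05 in limma when 1 array was left out. With array weights 1602 genes passed as higher and 2628 as lower. Weights fitted to the 8 arrays alone gave 1359 and 1647, weights without animal 119 gave 1682 and 2995, and weights over set 2 gave 1546 and 2626, these 3 settings being chosen after seeing the data. The cause was not tested. Of the 4230 genes called with weights, 4008 were also called the same way with set 2 weights. Against water, N-methylolacrylamide gave 376 lower genes with the 12 water gavage arrays, 2378 higher and 3592 lower with array weights (2373 and 3600 without animal 119, 2360 and 3601 over set 2), and 1 higher and 0 lower with the principal axis. With 1 array left out it gave 262 to 1939 higher and 37 to 2040 lower. The principal axis scores of the N-methylolacrylamide and water arrays did not overlap. 2-chloromethylpyridine against water gave 254 higher and 60 lower with array weights (185 and 40 without animal 119, 50 and 14 over set 2), and 0 to 1 higher and 0 lower with 1 array left out. Some differences changed sign, and not all of these were near 0 in the main fit. Adipoq was at -0.62 there, Atr at 0.45, Iglv1 at 0.39 and Nppa at 0.30. The mean over all probe sets gave 0.067 for H2az1 and -0.087 for Iglv1, and quantile normalization gave -0.0013 for Cyp1a2. Array weights gave -0.016 for Cdkn1a, 0.087 for Cyp1b1, 0.065 for Gclc, -0.0091 for Gsta4 and 0.12 for Krt15. The principal axis gave -0.035 for Atr, -0.075 for Cyp3a11, -0.0063 for Gsta4, 0.036 for Gstp1, 0.016 for H2az1, 0.086 for Mcm3, 0.099 for Mcm5, -0.018 for Mdm2, -0.21 for Nppa and 0.036 for Uchl1. With 1 array left out the range was -1.09 to 0.22 for Adipoq, -0.070 to 0.10 for Gsta4, -0.67 to 0.14 for Alb, -0.033 to 0.015 for Gstp1, -0.14 to 0.046 for H2az1, -0.43 to 0.78 for Nppa, -0.14 to 0.047 for Gclc, -0.17 to 0.011 for Ephx1, -0.56 to 0.16 for Tcap, -0.23 to 0.074 for Krt15, -0.069 to 0.16 for Cyp1a2, -0.10 to 0.069 for Cyp1b1, -0.17 to 0.012 for Mcm3, -0.21 to 0.12 for Mcm5 and -0.0074 to 0.73 for Iglv1. Of the 158 named genes, 87 passed with array weights. The tumour label over other chemicals gave 0 genes in each fit, with 374 at an unadjusted p under 0.05 in limma for set 2 alone and 1552 with no filter. No paired analysis was possible because the groups share no replicate numbers.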
